A study of Mus musculus with 96 samples.

Results

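The early response of the brain to ischemic stroke was pooled over 3 groups of male mice, as the difference between the ipsilateral (IP) and the contralateral (CL) hemisphere of each animal. It took in 46 of the 96 arrays of the series, the IP and CL arrays of 23 of its 48 mice: 8 diabetic, 8 old and 7 male mice subjected to middle cerebral artery occlusion (MCAO). These were all ischemic animals of the 3 groups other than male mouse 3, whose arrays stood apart from those of its group. The 24 arrays labelled female were left out because their hemisphere labels are in doubt. Sham animals of the same groups, 4 diabetic, 4 old and 3 male mice with 22 arrays, served as the control for surgery.

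Diabetic mice were 8 to 12 weeks old males of the strain BKS-Leprdb/db/JOrlRj, whose leptin receptor is defective. Old mice were C57Bl/6j males aged 18 months. The group called males held C57Bl/6j males aged 8 to 12 weeks. MCAO animals had the artery blocked by a filament for 90 min and were reperfused for 30 min, so that tissue was taken 2 h after onset, while sham animals had the surgery without the filament. All were perfused with saline, and a brain slice was divided into its right (IP) and left (CL) side. No lean mice of the BKS strain were among the groups, so diabetes and strain cannot be told apart. The group called males was run first and the rest in a later round of experiments, so for any difference between males and the rest, group and round cannot be told apart either. Each array measured the RNA of all cell types of 1 side of the slice together, and fewer cells of a type and less RNA per cell cannot be told apart. The label brain fitted the signals of Snap25, a synaptic vesicle fusion protein of neurons, and of Gfap, the filament protein of astrocytes, at mean log2 signals over the MCAO mice of 12.51 in IP and 12.52 in CL for Snap25 and 9.24 in IP and 9.19 in CL for Gfap.

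When blood flow stops, brain cells lose ATP, depolarize and release glutamate, and calcium that enters neurons switches on immediate early genes, which need no new protein to be transcribed. Misfolded proteins free heat shock factors, which drive chaperone genes, and microglia and vessel cells begin to make chemokines, cytokines and prostaglandins. Brakes on these signals, phosphatases of the MAP kinases and proteins that destroy short-lived mRNAs, are induced by the same signals.

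Old mouse 8 ran against its hemisphere labels for many genes. Over the 708 genes called from the other 22 mice, each turned to the direction of those mice, its median IP minus CL difference was -0.22, and 22.6% of these genes had the sign of the other mice. The same measure, taken for each of the others from the genes called without it, lay between 0.08 and 0.48, with 59.0% to 90.6% of the genes of the same sign, and old mouse 6 had the lowest share of these. In old mouse 8 the chaperone gene Hspa1a was at 7.08 in IP and 10.17 in CL, and the chemokine gene Ccl3 at 6.22 in IP and 8.07 in CL, the reverse of the other old mice. Its Npas4, at 10.09 in IP and 9.76 in CL, was high on both sides. The labels were kept, and results are given with all 23 mice and without this animal. The results without it were chosen after its values were seen. Smaller p-values and counts over the other 22 mice therefore follow in part from that choice, above all for Hspa1a and Ccl3. Among the others, diabetic mouse 5 had a median difference of 0.195 over all genes, so its IP array was brighter than its CL array. That CL array had the lowest median signal of the diabetic MCAO arrays, 6.66. The IP array had 6.81, and the range over these arrays was 6.66 to 6.97. The signals of the IP arrays of diabetic mice 1, 2 and 4 had a narrower spread than those of their CL arrays, by an SD of 0.135, 0.102 and 0.0944 log2 units.

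**Figure D1:**
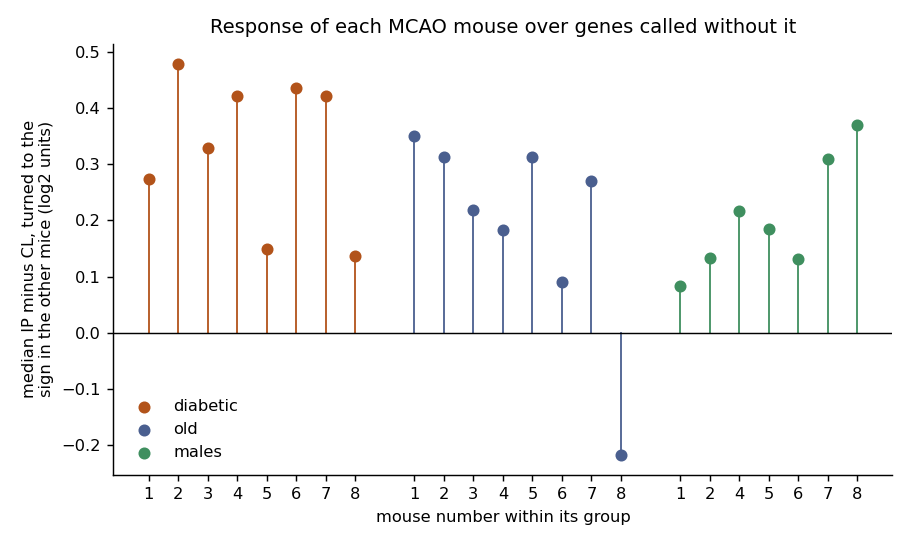
Median IP minus CL difference (log2) of each MCAO mouse over the genes called from the other 22 mice, turned to the direction of those mice, for diabetic, old and male mice. Old mouse 8 lies at -0.22 and the other 22 animals lie between 0.08 and 0.48.

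Npas4, a transcription factor of neurons that calcium entry switches on, rose most of all genes. The 250 bases before the start of Npas4 and of 4 other risers that the results turn on are shown because they carry short motifs through which such genes are known to be switched on. They come from RefSeq for the build GRCm38.p6, at chr19:4989972-4990221 (minus strand) for Npas4, chr12:85473640-85473889 (plus strand) for Fos, chr15:101266596-101266845 (plus strand) for Nr4a1, chr17:34972157-34972406 (minus strand) for Hspa1a and chr3:145649986-145650235 (minus strand) for Ccn1. Capitals mark TGACG, the core of the cAMP response element, or its reverse complement in Npas4, Fos, Nr4a1 and Ccn1, and GAANNTTC, a pair of heat shock units, in Hspa1a.
Npas4: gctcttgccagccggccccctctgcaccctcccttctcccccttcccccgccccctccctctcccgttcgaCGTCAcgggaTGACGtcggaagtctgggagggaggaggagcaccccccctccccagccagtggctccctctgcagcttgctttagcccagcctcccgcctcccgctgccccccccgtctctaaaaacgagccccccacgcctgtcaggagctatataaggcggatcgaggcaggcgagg
Fos: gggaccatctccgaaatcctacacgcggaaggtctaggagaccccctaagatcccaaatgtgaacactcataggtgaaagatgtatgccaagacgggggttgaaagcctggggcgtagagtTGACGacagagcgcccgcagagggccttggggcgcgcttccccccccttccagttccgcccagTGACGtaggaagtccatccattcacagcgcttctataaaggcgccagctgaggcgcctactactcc
Nr4a1: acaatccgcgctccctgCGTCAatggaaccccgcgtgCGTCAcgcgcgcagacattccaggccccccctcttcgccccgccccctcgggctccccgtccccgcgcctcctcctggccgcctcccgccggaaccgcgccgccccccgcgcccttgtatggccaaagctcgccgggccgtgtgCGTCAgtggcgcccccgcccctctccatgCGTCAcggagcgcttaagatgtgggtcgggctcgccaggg
Hspa1a: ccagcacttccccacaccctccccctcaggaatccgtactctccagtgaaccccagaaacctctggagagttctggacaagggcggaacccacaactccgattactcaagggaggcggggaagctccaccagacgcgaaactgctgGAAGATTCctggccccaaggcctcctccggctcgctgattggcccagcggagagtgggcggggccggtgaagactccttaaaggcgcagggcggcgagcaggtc
Ccn1: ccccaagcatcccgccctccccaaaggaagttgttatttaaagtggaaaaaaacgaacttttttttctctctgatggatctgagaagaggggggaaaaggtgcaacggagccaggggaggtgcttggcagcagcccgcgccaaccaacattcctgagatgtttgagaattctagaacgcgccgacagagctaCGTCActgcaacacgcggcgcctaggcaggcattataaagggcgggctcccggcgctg

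The first base of TGACG lay 179 and 169 bases before the start of Npas4, 129 and 66 before that of Fos, 233, 213, 69 and 40 before that of Nr4a1 and 58 before that of Ccn1, and GAANNTTC began 104 bases before that of Hspa1a. Over all 19143 such windows, of 15691 of the genes tested, 20.9% held TGACG on either strand. The share was 41.5% of 246 windows of 189 genes that rose and 24.2% of 207 windows of 157 genes that fell, and from the calls without old mouse 8 it was 36.5% and 23.1%. The full cAMP response element TGACGTCA, which contains TGACG, stood in 6.91% of the windows of rising genes, 0.483% of those of falling genes and 1.99% of all. The CArG box, the site of serum response factor, stood in 4.47%, 0.483% and 1.33%. The AP-1 site TGANTCA stood in 7.32%, 2.90% and 6.26%, and GAANNTTC in 5.69%, 6.28% and 5.89%. All 5 motifs were searched on both strands. Rising and falling genes had the same median GC content, 60%, against 56% over all windows. Windows of 1 gene overlap and were counted one by one, so these shares are a description of the sequences.

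Of 19505 genes tested with limma, 428 differed between IP and CL at an adjusted p under 0.05, which is 2.19% of all. 238 genes rose in IP (1.22%) and 190 fell (0.974%). Rises were larger than falls. 21 genes rose by at least 1 log2 unit, a 2-fold difference, and no gene fell by as much. At 0.5 log2 units the numbers were 59 and 3, and the median rise was 0.34 against a median fall of -0.25. 412 of the 428 had a mean of the same sign in diabetic, old and male mice, which holds for 31.1% of all genes tested, but the pooled fit itself favours such genes. No gene had the same sign in all 23 mice. From the 22 mice without old mouse 8, 708 genes were called (3.63%), 343 rising (1.76%) and 365 falling (1.87%), and 423 genes were called in both fits.

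**Figure D2:**
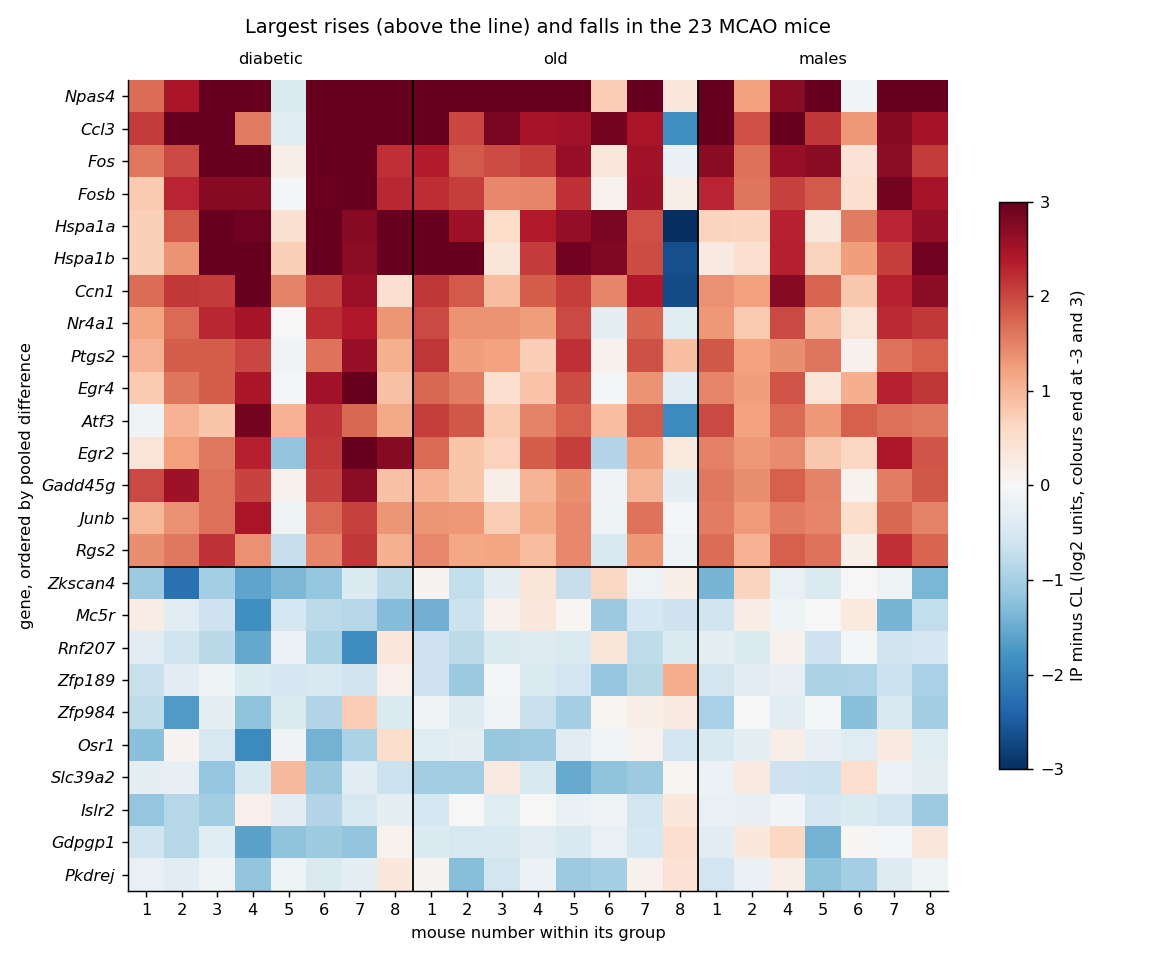
IP minus CL difference (log2, colour scale from -3 to 3) of the 15 genes with the largest called rise and the 10 with the largest called fall, in each of the 23 MCAO mice, ordered as diabetic, old and male. The rises are of 1 colour in most mice, but old mouse 8, diabetic mouse 5 and old mouse 6 are each lower in IP for several of them. The falls are fainter and mixed between mice.

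The pooled calls were mostly out of reach of a single group. Diabetic mice alone gave 56 calls (47 rose, 9 fell), males alone 22 rises and old mice alone none, with 1336 genes at an unadjusted p under 0.05. Without old mouse 8, the 7 other old mice gave 11 rises. 369 of the 428 pooled calls were made in no group by itself. Within the later round of experiments, diabetic and old mice together gave 346 calls, and males were the only group of the first round. Every IP array lay above every CL array for 35 genes in diabetic (0.179% of all), 1 gene in old (0.00513%) and 15 genes in male mice (0.0769%), and for no gene in all 3 groups. Over the 238 rising genes the median difference was 0.47 in diabetic, 0.25 in old and 0.31 in male mice. Over the 190 falling genes it was -0.34 in diabetic, -0.18 in old and -0.21 in male mice.

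Among the gene lists, immediate early transcription factors had the highest share of risers. The lists were chosen with earlier results of these data known, so this order is a description. Of 29 measured, 21 rose, none fell, and all 29 had a positive difference, with a median of 0.62 against 0.00 over all genes. Without old mouse 8, 23 of 29 rose. For Npas4 the lowest, median and highest signals in IP were 9.76, 11.48 and 12.12 in diabetic, 10.09, 10.68 and 11.88 in old and 8.90, 9.70 and 10.17 in male mice. In CL they were 6.49, 7.37 and 11.48 in diabetic, 6.30, 7.34 and 11.13 in old and 4.99, 6.68 and 9.51 in male mice. The hemispheres overlapped in each group because a few animals were high in CL as well, and 21 of 23 mice were higher in IP. Npas4 rose by 2.91 ± 0.32 log2 units (SE, n = 23 mice, limma adjusted p = 6.63e-06) and by 3.04 without old mouse 8 (adjusted p = 1.25e-06). In the 11 sham mice the difference ran from -1.83 to 0.02 with a median of -0.26.

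Fos, the partner of Jun in AP-1, had a lowest, median and highest IP minus CL difference of 0.18, 2.64 and 3.64 in diabetic, -0.20, 2.01 and 2.62 in old and 0.43, 2.62 and 2.70 in male mice. It was higher in IP in 22 of 23 mice, all but old mouse 8. Fos rose by 2.08 ± 0.20 (SE, limma adjusted p = 2.72e-06; 2.17 without old mouse 8), and in sham mice the difference ran from -0.46 to 0.55. Other AP-1 members rose too, Fosb by 1.87 ± 0.19 (adjusted p = 2.72e-06), Junb by 1.24 ± 0.13 (adjusted p = 2.72e-06) and Jun by 0.87, as did Atf3, a stress factor of the same protein class, by 1.35 ± 0.18 (adjusted p = 0.000102). The nuclear receptor gene Nr4a1 rose by 1.40 ± 0.16 (adjusted p = 1.71e-05). The zinc finger genes Egr4 and Egr2 rose by 1.36 and 1.31, and Egr1 by 0.76. Myc did not pass the test, nor did Klf4 and Klf2, which rose in the fit without old mouse 8.

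Genes that neurons make on activity followed, with 15 of 27 risers, no faller and a median of 0.25 (16 risers without old mouse 8). Arc, which takes part in the removal of AMPA receptors from synapses, rose by 1.00 ± 0.12 (SE, n = 23, limma adjusted p = 3.36e-05), with means of 0.99 in diabetic, 0.79 in old and 1.21 in male mice. Nptx2, a secreted protein that gathers AMPA receptors, rose by 0.78, and Bdnf, a neurotrophin, by 0.71 in 22 of 23 mice, from -0.02 in the lowest mouse over a median of 0.52 to 1.81 in the highest. The sham range of Bdnf was -0.26 to 0.52 and overlapped with that of the MCAO mice. Homer1, a postsynaptic scaffold, rose by only 0.23, but in each of the 22 mice other than old mouse 8. Of the genes that encode glutamate receptors and transporters, none of 24 was called (1 fell without old mouse 8). With 2.19% of all genes called, this says little for a list of that size.

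Brakes on signalling rose beside the immediate early genes. Of 26 genes that feed back on MAP kinases and G proteins, 14 rose and none fell, all 26 were positive, and the median was 0.39 (16 rose without old mouse 8). Dusp6, the phosphatase of ERK, had lowest, median and highest differences of 0.18, 1.20 and 1.80 in diabetic, -0.02, 1.21 and 1.53 in old and 0.27, 1.08 and 1.75 in male mice, a pooled rise of 1.09 ± 0.11 (SE, limma adjusted p = 2.72e-06). Its sham range was -0.41 to 0.55. Rgs2, which shortens G protein signals, rose by 1.21 ± 0.15 and Dusp1, which acts on p38 and JNK, by 0.78 ± 0.10. Gadd45g, a stress protein that binds a MAP kinase kinase kinase, rose by 1.26 ± 0.14 (adjusted p = 6.63e-06), with means of 1.74 in diabetic, 0.63 in old and 1.40 in male mice. These means were not shown to differ (limma F-test, adjusted p = 0.261). Of 11 genes for factors that destroy mRNA, 5 rose, with Btg2 at 1.18 ± 0.14 and Zfp36, which binds AU-rich mRNAs of cytokines, at 1.15 ± 0.16. Zfp36 was higher in IP in 22 of 23 mice and lay at -1.96 in old mouse 8. Without that animal its rise was 1.29, with the smallest adjusted p of all genes (4.23e-08), a value it shared with Ccn1 and Ccl3.

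**Figure D3:**
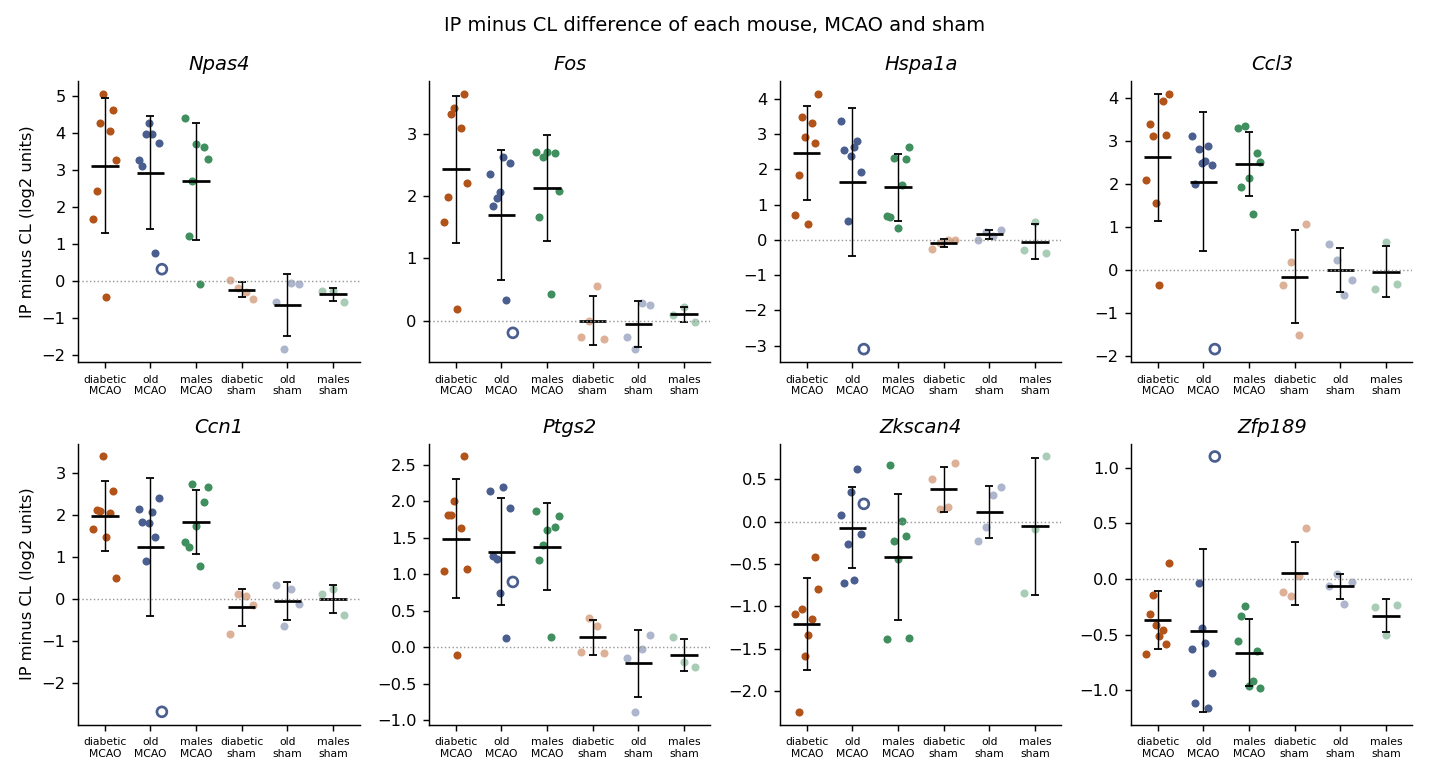
IP minus CL difference (log2) of 8 genes in each mouse, for diabetic, old and male MCAO mice and, to the right, the sham mice of these groups; the black line is the mean, the bar the SD and the open circle old mouse 8. Npas4, Fos, Hspa1a, Ccl3, Ccn1 and Ptgs2 lie above the sham mice in most MCAO mice, while Zkscan4 and Zfp189 spread around smaller falls.

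Heat shock genes split into a few large risers and many that did not pass. Of 18 measured, Hspa1a, Hspa1b, Dnajb1 and Dnajb4 rose, none fell, and the median was 0.08 (6 rose without old mouse 8). Hspa1a, an inducible HSP70, had lowest, median and highest signals of 7.91, 10.51 and 11.22 in IP of diabetic mice against 7.08, 7.67 and 8.77 in CL. In old mice they were 7.08, 9.73 and 10.78 in IP against 7.22, 7.39 and 10.17 in CL, and in males 6.07, 6.97 and 8.13 in IP against 5.40, 5.64 and 6.22 in CL. Both extremes of the old mice that cross over, the lowest IP and the highest CL signal, belonged to mouse 8. Hspa1a rose by 1.86 ± 0.30 (SE, n = 23, limma adjusted p = 0.000704) and by 2.09 without old mouse 8 (adjusted p = 1.42e-06), when all 22 mice were higher in IP. Hspa1b gave 1.84 ± 0.29, but the 2 genes are near copies, 247 of the 250 bases before their starts are the same, and their probe sets may share signal, so they should be read as 1 result. Dnajb1, a helper of HSP70, rose by 0.43 ± 0.09 (adjusted p = 0.00766). Of 23 genes of the endoplasmic reticulum stress response, Ppp1r15a, which restarts translation, and Atf4, a transcription factor of the stress response, rose by 0.45 and 0.20.

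Among the chemokine, cytokine and NF-kappaB lists Ccl3 had the largest rise. Of 39 chemokine and receptor genes 7 rose, Ccl3, Ccl4, Ccrl2, Ccl2, Cxcl2, Ccl7 and Ccr1, and Ccl25 fell (6 and 1 without old mouse 8). Ccl3, which draws monocytes and neutrophils, had lowest, median and highest differences of -0.35, 3.12 and 4.09 in diabetic, -1.85, 2.50 and 3.11 in old and 1.29, 2.50 and 3.34 in male mice, and a sham range of -1.51 to 1.06. It rose by 2.38 ± 0.26 (SE, limma adjusted p = 6.63e-06) and was lower in IP only in diabetic mouse 5 and old mouse 8. Its neighbour in the family Ccl4 rose by 0.79 ± 0.14 (adjusted p = 0.00238), with means of 0.99 in diabetic, 1.11 in old and 0.28 in male mice. Ccl2, which recruits monocytes, rose by 0.61 ± 0.14 (adjusted p = 0.0141).

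Of 31 cytokine and receptor genes Il1a rose and Il1r1, the receptor of interleukin 1, fell. In the fit without old mouse 8, 6 of the 31 rose, Il1a, Il1b, Tnf, Lif, Il10 and Tnfrsf10b, and Il1r1 fell. Il1a had lowest, median and highest differences of -0.38, 0.87 and 2.69 in diabetic, -1.03, 2.00 and 3.27 in old and -0.27, 0.32 and 0.86 in male mice, and rose by 1.01 ± 0.21 (SE, limma adjusted p = 0.00997). Its means of 0.97 in diabetic, 1.78 in old and 0.28 in male mice were not shown to differ (limma F-test, adjusted p = 0.36), and the sham range reached 1.28, so that MCAO and sham mice overlapped. Ptgs2, the inducible cyclooxygenase of prostaglandin synthesis, rose by 1.39 ± 0.14 (adjusted p = 2.72e-06) in 22 of 23 mice, alone among 13 genes of its pathway, with means of 1.49 in diabetic, 1.31 in old and 1.38 in male mice. Of 21 genes around NF-kappaB 5 rose (6 without old mouse 8), among them its nuclear partner Nfkbiz by 0.52 and the survival gene Bcl2a1d by 0.59. Cd14, a receptor for endotoxin, rose by 0.52 alone among 16 innate receptors. None of 25 interferon response genes and none of 20 antioxidant and metallothionein genes was called, with or without old mouse 8. Over all genes 2.19% were called, and 3.63% without that animal, so lists of this size may hold no call by that share alone.

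Matrix and vessel wall genes were a further group of risers, 9 of 25 with no faller and a median of 0.23 (12 without old mouse 8). Ccn1, a matrix protein made under stretch and by growth factors, had lowest, median and highest differences of 0.51, 2.07 and 3.40 in diabetic, -2.67, 1.82 and 2.40 in old and 0.80, 1.75 and 2.74 in male mice. The sham range was -0.83 to 0.34, and old mouse 8 was the only MCAO animal inside or below it. Ccn1 rose by 1.69 ± 0.22 (SE, limma adjusted p = 7.48e-05), and by 1.88 without that mouse (adjusted p = 4.23e-08). Thbs1, an inhibitor of vessel growth, rose by 1.20 ± 0.15 (adjusted p = 3.5e-05), with means of 1.80 in diabetic, 0.72 in old and 1.08 in male mice. Adamts1, a protease of the matrix, rose by 0.86, and Apold1, an early gene of the endothelium, by 0.90. Icam1 was the riser among 14 adhesion molecules at 0.36, and Abcb1a, the efflux pump P-glycoprotein, that among 14 blood-brain barrier genes at 0.27. Of the 29 hypoxia targets, P4ha1, a collagen prolyl hydroxylase, Adm, a peptide that widens vessels, and Vegfa rose, by 0.55 ± 0.07 (adjusted p = 3.36e-05), 0.55 ± 0.10 (adjusted p = 0.00228) and 0.23 ± 0.06 (adjusted p = 0.028), and the list's median was 0.00.

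Genes of slower hormonal and daily rhythms moved in both directions. Of 24 targets of the glucocorticoid receptor and FoxO factors, Depp1, Cited2 and Per1 rose and Hif3a, Arrdc2, Fkbp5 and Klf15 fell (5 and 6 without old mouse 8). Depp1, a FoxO target linked to autophagy, rose by 0.90 ± 0.09 (SE, limma adjusted p = 3.09e-06) in 22 of 23 mice, with means of 0.84 in diabetic, 0.83 in old and 1.03 in male mice. Of 17 clock genes Per1, Per2 and Cry1, repressors of the clock, rose by 0.40, 0.40 and 0.25. Dbp, an output gene of the clock, fell by 0.24 (adjusted p = 0.000704) and was lower in IP in 22 of 23 mice. Among 21 neuropeptide genes Nts rose by 0.68 ± 0.14 (adjusted p = 0.008), with means of 1.11 in diabetic, 0.12 in old (0.20 without old mouse 8) and 0.82 in male mice, and Adcyap1 and Tac1 by 0.40 and 0.25.

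**Figure D4:**
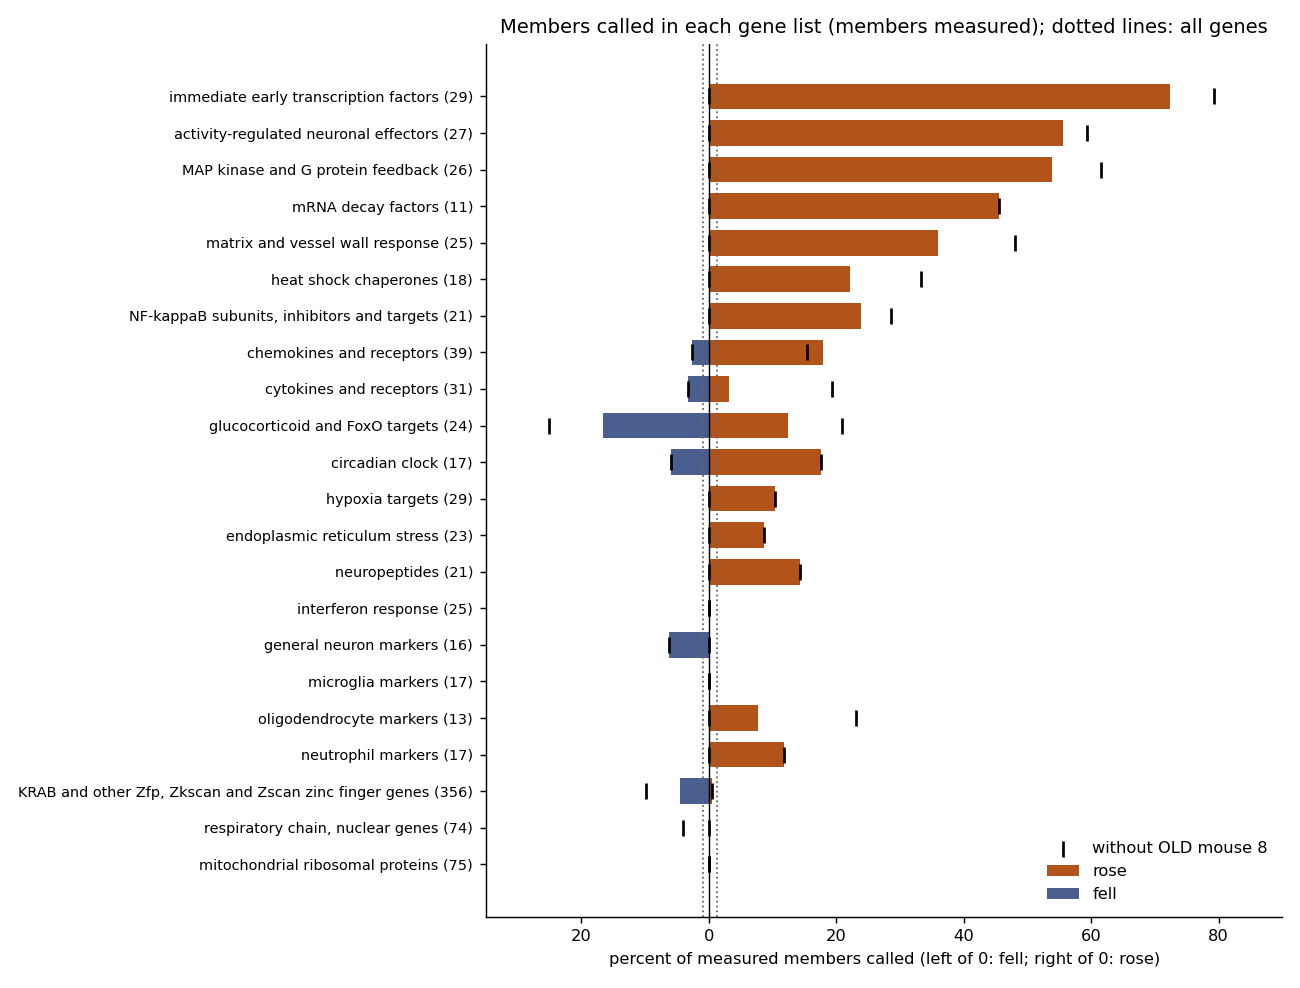
Percent of the measured members of each gene list that rose (to the right) or fell (to the left) in IP over 23 mice at a limma adjusted p under 0.05; ticks give the value without old mouse 8 and dotted lines the 1.22% and 0.974% of all genes. Immediate early transcription factors (21 of 29), neuronal effectors (15 of 27) and feedback genes (14 of 26) have the longest bars. The lists were chosen with earlier results of these data known.

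Falls were many but small. The largest called falls with 1 sign in the 3 groups were those of Zkscan4 (-0.56), Mc5r (-0.52), Rnf207 (-0.50), Zfp189 (-0.50), Zfp984 (-0.48), Osr1 (-0.45), Slc39a2 (-0.44), Islr2 (-0.41), Gdpgp1 (-0.40) and Pkdrej (-0.40). Zkscan4, Mc5r, Zfp984, Osr1, Slc39a2 and Pkdrej lay under the median level of all genes, 6.21, in both hemispheres. Of all called falls, 80.5% lay above it. The calls of Slc39a2, Gdpgp1, Osr1 and Pkdrej were lost in 25, 23, 20 and 19 alternatives and kept in 11, 14, 16 and 17. For the other falls named here the call was lost in 3 to 5. Zfp189, a zinc finger protein of the KRAB class, had lowest, median and highest differences of -0.67, -0.44 and 0.15 in diabetic, -1.16, -0.60 and 1.10 in old and -0.98, -0.65 and -0.24 in male mice. The value of 1.10 belonged to old mouse 8, and without it the fall of Zfp189 was -0.57 (limma adjusted p = 1.07e-05, against 0.005 with all mice). Zkscan4, of the same class, fell by 0.56 ± 0.12 (SE, adjusted p = 0.00822), with means of -1.21 in diabetic, -0.07 in old (-0.11 without old mouse 8) and -0.41 in male mice. All 8 diabetic mice were lower in IP, but 4 of 8 old mice and 2 of 7 males were higher. Islr2, a membrane protein of growing axons, fell by 0.41 ± 0.07 (adjusted p = 0.00246), and Trp53inp1, a p53 target, by 0.37 ± 0.09 (adjusted p = 0.0195).

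Zinc finger genes of the names Zfp, Zkscan and Zscan made up a share of the falls. Of 356 measured, 16 fell and 2 rose, with a median of -0.09 (35 and 2 without old mouse 8). That is 4.49% falling, against 0.974% of all genes. A positive difference was found in 67 of the 356, 18.8%, against 50.3% of all genes. The risers were Zfp275 and Zfp36, which is an mRNA decay factor and not of the KRAB class. 3 genes were lower in IP in each of the 22 mice other than old mouse 8, which is 0.0154% of all genes: Arhgap39 (-0.23), Gm10778 (-0.42) and Ccdc115 (-0.24). In the other direction 14 genes were higher in each of these 22 mice, 0.0718% of all: Ccn1, Zfp36, Depp1, Fos, Zfp36l2, P4ha1, Hspa1a, Hspa1b, Jun, Spry2, Klf6, Sox9, Cckbr and Homer1.

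Probe sets that carry no gene symbol differed between the hemispheres as well. Of 9489 of these, 55 were called, 0.58%, with none in sham mice. The same model was fitted to them apart from the genes and adjusted over them alone, so this share and that of the genes rest on separate adjustments. Among 5222 whose identifiers hold the letters neg, 33 were called (0.632%), and 12.7% had an unadjusted p under 0.05, against 5.29% in sham mice. The called values of this kind ran from -0.81 to 1.13, so the lowest lies beyond the lowest called value of a gene with a symbol, -0.56 for Zkscan4. What these probe sets measure was not worked out here. Among the 19505 genes with a symbol, 3151 had an unadjusted limma p under 0.05 in MCAO mice and 969 in sham mice.

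Of the markers of microglia (17 measured), monocytes (14), lymphocytes (13) and the choroid plexus and meninges (18) none was called with all mice (Cd4 fell without old mouse 8), and 1 each of those of astrocytes (Sox9), oligodendrocytes (Sox10), endothelium (Flt1) and cortical neurons (Tbr1) rose. Striatal markers gave 1 riser, Tac1, and 1 faller, Gpr6, of 17. Over all genes 2.19% were called, so such counts say little for lists of this size. The Tbr1 call was lost in 19 alternatives and kept in 17, and those of Tac1 and Gpr6 were lost in 23 each. For Sox9, Sox10 and Flt1 it was lost in 4, 4 and 2. Among 16 general neuron markers Tubb3, a neuronal tubulin, fell by 0.13 ± 0.04 (SE, limma adjusted p = 0.0466), with means of -0.34 in diabetic, -0.02 in old and -0.04 in male mice. This call was lost in 28 alternatives and kept in 8, and without diabetic mice its adjusted p was 0.883. Only 3 of the 16 neuron markers were positive, 18.8% against 50.3% of all genes. The median of this list ran from -0.36 to 0.06 in diabetic, -0.06 to 0.11 in old and -0.01 to 0.15 in male mice. All 13 oligodendrocyte markers were positive, with a median of 0.11 (3 rose without old mouse 8), and the median of the list ran from -0.21 to 0.71 in diabetic, -0.23 to 0.32 in old and -0.18 to 0.29 in male mice. Between mice the median difference over the striatal list ran from -0.52 to 0.61, that of the cortical list from -0.33 to 0.36, that of the microglia list from -0.95 to 0.27 and that of the choroid plexus and meninges list from -0.54 to 0.77. In old mouse 8 the striatal list lay at -0.37, the cortical list at 0.29 and the neutrophil list at -0.38. Their part in the calls was not tested.

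Neutrophil genes gave 2 risers of 17, the alarmin pair S100a8 and S100a9. S100a8 rose by 0.76 ± 0.17 (SE, limma adjusted p = 0.0129), with means of 1.51 in diabetic, 0.33 in old and 0.43 in male mice, and S100a9 by 0.50 ± 0.13 (adjusted p = 0.0495), with means of 1.41 in diabetic, -0.14 in old and 0.22 in male mice. Without old mouse 8, which lay at -0.94 for S100a8 and -1.75 for S100a9, the old means were 0.51 and 0.09. The call of S100a9 was lost in 27 alternatives and kept in 9, and without diabetic mice its adjusted p was 0.966. The group means were not shown to differ for S100a8 (limma F-test, adjusted p = 0.283) or S100a9 (adjusted p = 0.103). Over all 17 neutrophil markers the median difference of a mouse ran from 0.01 to 0.72 in diabetic, -0.38 to 0.32 in old and -0.06 to 0.19 in male mice. The red blood cell and platelet list, of which 6 genes were measured, ran from -0.24 to 0.75 in diabetic, -0.30 to 0.18 in old and -0.18 to 0.20 in male mice. In diabetic mice the median over the genes of the neutrophil list was 0.31. Lymphocyte markers lay at 0.28 and red blood cell and platelet markers at 0.29, general neuron markers at -0.17 and housekeeping genes at -0.11. S100a8 was weak, at mean signals of 3.61 in IP and 2.85 in CL. Whether the narrower spread of some diabetic IP arrays took part was not tested, nor how much blood the slices held.

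Sham surgery by itself gave no call. In the 11 sham mice no gene had an adjusted p under 0.05 (limma, 0%), the lowest adjusted p was 0.955, and 969 genes were below 0.05 before adjustment. When the difference of MCAO mice was set against that of sham mice, 33 genes were called (0.169% of all), 31 higher in MCAO (0.159%) and 2 lower. Of the 31, 30 were among the pooled rises, led by Fosb (2.00 more in MCAO, adjusted p = 0.00125), Npas4 (3.32, adjusted p = 0.00125), Fos (2.06), Ptgs2 (1.45) and Junb (1.30). The one outside them was Nebl. The pair that was lower was Ccdc166, a pooled fall, and 9130019O22Rik. At an unadjusted p under 0.05, 185 of the 238 rises and 127 of the 190 falls differed from sham, against 4.69% and 4.48% of all genes in these directions. The MCAO mice are the same in both comparisons, so these counts are not independent of the pooled calls. Without old mouse 8, 65 genes differed from sham (0.333%), 57 higher and 8 lower. Hspa1a was among them with an adjusted p of 0.000489, against 0.103 with all mice. Hspa1a is one of the genes by which that animal stood out, so its smaller p follows in part from leaving the animal out.

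**Figure D5:**
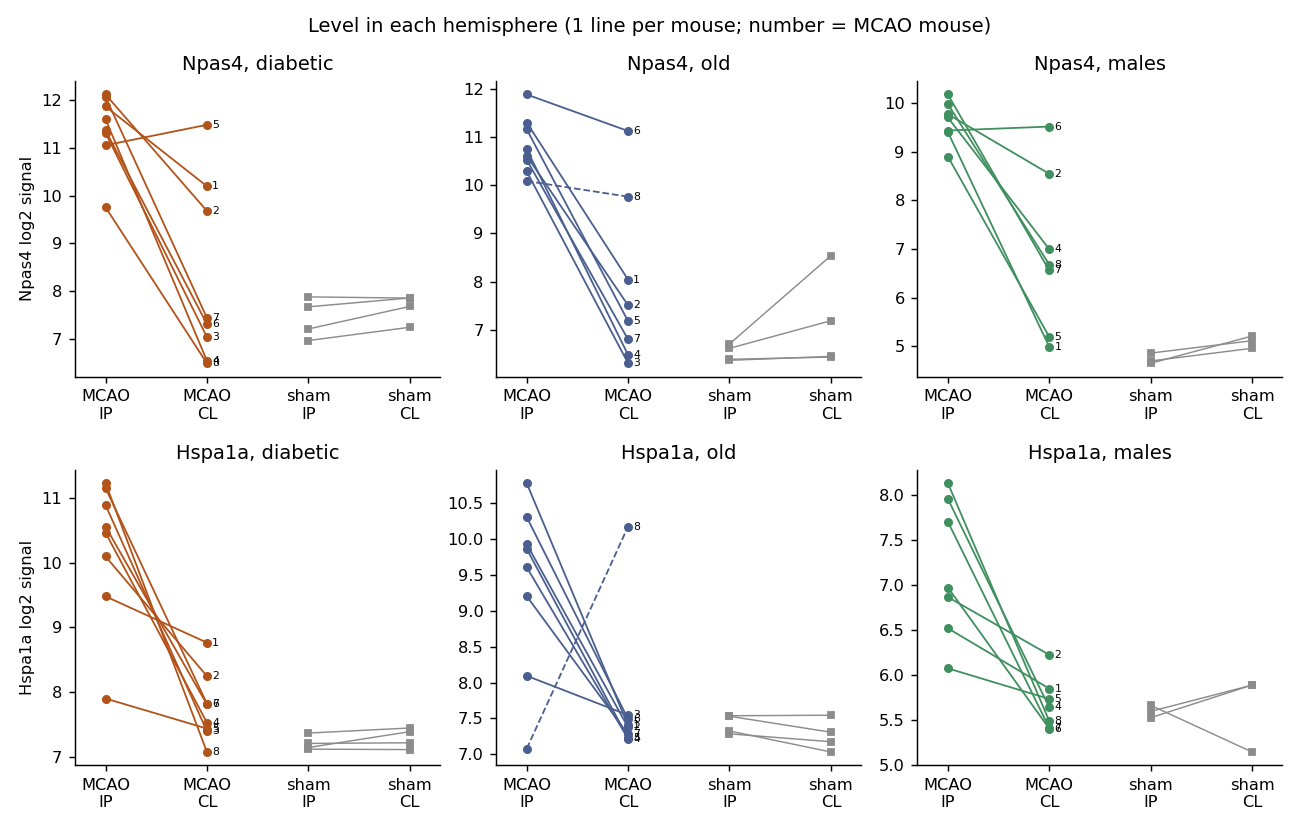
Signal (log2) of Npas4 and Hspa1a in IP and CL, with 1 line per mouse, for diabetic, old and male MCAO mice (dashed, old mouse 8) and sham mice (grey). Npas4 in IP lies above every sham array of its group in all 23 MCAO mice, and in CL in 10 of them.

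The CL hemisphere of MCAO mice was not at the sham level for the same genes in every animal. Npas4 was above the highest sham array of its group in IP of 23 of 23 mice and in CL of 10 of 23, diabetic mice 1, 2 and 5, old mice 6 and 8 and male mice 2, 4, 6, 7 and 8. In diabetic mouse 5 Npas4 stood at 11.05 in IP and 11.48 in CL, in old mouse 6 at 11.88 in IP and 11.13 in CL and in male mouse 6 at 9.43 in IP and 9.51 in CL. The small differences of these animals thus came with a high CL signal and not with a low IP signal. Fos and Nr4a1 were above the sham arrays in IP of 23 mice and in CL of 15, Ccn1 in IP of 22 and CL of 15, Ptgs2 in IP of 23 and CL of 11 and Ccl3 in IP of 22 and CL of 11. Hspa1a was above them in IP of 22 mice and in CL of 8. Only the 15 largest rises and Arc, Zfp36 and Dusp6 were looked at, so the IP counts follow in part from that choice. How often the CL arrays exceed the sham arrays over all genes was not counted. A difference between the hemispheres gives a lower value than a comparison with sham tissue would in such animals, by construction.

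The 3 groups were compared gene by gene. No gene was called by the limma F-test over the group means (0% at an adjusted p under 0.05), while 2325 genes, 11.9%, had an unadjusted p under 0.05, and among the 428 pooled calls it was 92, or 21.5%. The count of 0 depended on the processing, with 18 calls after scaling of the arrays, 43 among genes above the median level and 31 without diabetic mouse 8. The 5 genes with the smallest p were Dctd, Flna, Plscr1, Mlec and Dcakd. Dctd, an enzyme that makes dUMP for thymidine synthesis, had lowest, median and highest differences of -0.85, -0.46 and -0.23 in diabetic, -0.12, 0.02 and 0.29 in old and -0.05, 0.13 and 0.42 in male mice, so that diabetic mice did not overlap with the others (F-test, adjusted p = 0.0502). In the fit without old mouse 8 Dctd was the 1 gene called (0.00513% of all, limma adjusted p = 0.0490). Flna, an actin crosslinker, lay between 0.31 and 1.25 in diabetic, -0.45 and 0.36 in old and -0.21 and 0.28 in male mice (adjusted p = 0.0696). Dctd and Flna were picked for their small p, so the separation of their ranges follows in part from that choice. How many of all genes have diabetic mice apart from the others was not counted. For Npas4 the group means were 3.12 ± 1.83 in diabetic, 2.93 ± 1.53 in old and 2.70 ± 1.58 in male mice (SD, F-test adjusted p = 0.962). For Hspa1a they were 2.45 ± 1.33 in diabetic, 1.64 ± 2.09 in old and 1.49 ± 0.95 in male mice (F-test adjusted p = 0.754). A p that misses the threshold does not show that groups responded alike.

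Mice with a large response of 1 kind tended to have a large response of another, but this rested on few animals. Of 6 relations between Npas4, Hspa1a, Ccl3 and Ccn1 over the 23 mice, with group means removed, 5 had a Pearson r with an adjusted p under 0.05 in a two-sided permutation test, but by Spearman's rho only 1 did. The highest was that of Hspa1a and Ccl3 (r = 0.77, p = 0.00221, adjusted p = 0.00874; Spearman's rho = 0.59, p = 0.00426, adjusted p = 0.0256). Npas4 and Ccl3 gave r = 0.62 (p = 0.00437, adjusted p = 0.00874; rho = 0.30, p = 0.195, adjusted p = 0.292). The others gave r = 0.49 for Npas4 and Hspa1a, 0.56 for Npas4 and Ccn1, 0.71 for Hspa1a and Ccn1 and 0.56 for Ccl3 and Ccn1, with adjusted permutation p of 0.0227, 0.00874, 0.0204 and 0.0582. Their rho were 0.20, 0.43, 0.49 and 0.20 in this order, with adjusted permutation p of 0.376, 0.0864, 0.0574 and 0.376. Without the 2 mice farthest from the median on the first gene, no relation kept an adjusted p under 0.05, and r was 0.36 for Hspa1a and Ccl3 (diabetic mouse 5 and old mouse 8 left out) and 0.43 for Npas4 and Ccl3 (diabetic mouse 5 and male mouse 6 left out). Without old mouse 8 alone the r were 0.54 and 0.54, with an adjusted permutation p of 0.0823 for each. Within groups, Hspa1a and Ccl3 gave r = 0.74 in 8 diabetic, 0.90 in 8 old and 0.25 in 7 male mice, and none of the 18 within-group relations passed an exact permutation test after adjustment (lowest adjusted p = 0.144).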

How the data were processed

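Arrays (Clariom S, mouse) measured total brain RNA, 1 per hemisphere. The deposited values are log2 signals, which the authors computed by Robust Multiarray Average (background correction, logarithm to base 2 and quantile normalization), group by group. The submitters' processing notes name the Affymetrix Expression Console. Signals were therefore compared within a group only, and groups were pooled through IP minus CL within a mouse. Of 29129 probe sets, 19572 had 1 gene symbol, none had several and 9557 had none. They stand for 19505 genes, with the probe set of the highest mean where a gene had several. Symbols came from the platform annotation and matched RefSeq by gene ID.

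For 8800 probe sets the diabetic and old signals stood 3 rows too low in the table and were moved up, which raised the correlation with the male arrays over these probe sets to 0.974 in diabetic and 0.976 in old mice, against 0.169 and 0.171 as deposited. The arrays used had a median correlation with their group of 0.976 to 0.989. Male MCAO mouse 3 and male sham mouse 1 had 0.364 to 0.595 and were left out. The methods removed more than 1 ischemic male without giving numbers, so at least 1 of the 7 males used here was left out by the authors, who kept all male sham mice. Female arrays were not analysed here.

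limma 3.58.1 in R 4.3.3 was fitted to the difference of each mouse with 1 mean per group, weighting groups equally, and Benjamini-Hochberg adjustment over all genes. The fit was tested on simulated data. MCAO was compared with sham and the groups with each other (F-test). IP and CL arrays come from the same animal, and their deviations from the group means correlated at a median of 0.0823 in diabetic, 0.112 in old and 0.135 in male mice. P-values measure the spread between mice, and the number of arrays limits the precision. Relations across mice used permutation tests with scipy 1.17.1 under Python 3.11.15. Alternatives were an adjusted p under 0.25, filters on SD and level, other variance and scaling settings, fits without the pairing, without groups and without single mice.

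Genes named were the 15 largest called rises and 10 largest called falls of 1 sign in the 3 groups, the 5 with the smallest p between groups, those of 1 sign in every mouse, up to 4 called members of each gene list by size, with up to 2 known members that were not called, and Npas4, Hspa1a, Ccl3 and Ccn1. The mice, gene lists and motifs were chosen with earlier results of these data known. Alternatives without old mouse 8 for lists, relations and named genes were chosen after seeing the data, as were the genes named from the comparison with sham and from the 22 mice.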

Additional observations from a re-analysis of the deposited data

Results flagged for a closer look

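Of 156 sets of values of 4 to 10 mice that were looked at, 14 had 1 mouse far from the others, where chance flags about 1 in 20 groups, and 6 of the 14 came from old mouse 8. In that animal IP minus CL was -3.10 for Hspa1a, -2.67 for Ccn1, -1.91 for Atf3 and -1.85 for Ccl3, each far below the other old MCAO mice, and 0.51 for Gdpgp1, far above them. Its median response over the genes called without it, -0.22, was the sixth.

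Male mouse 6 had the lowest difference of the male MCAO mice for Ptgs2 (0.13), Gadd45g (0.11) and Junb (0.53), apart from the rest. Diabetic mouse 5 stood apart with -0.70 for Rgs2 and 0.98 for Slc39a2, and its median over all genes, 0.195, was far above that of the other diabetic MCAO mice. Old mouse 6 had the highest Rnf207 difference, 0.36. Among sham animals, diabetic sham mouse 2 had an Atf3 difference of -0.15, below the other diabetic sham mice.

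Probe sets without a gene symbol took no part in the comparisons of genes, and none of them was called in sham mice. In MCAO mice 33 whose identifiers hold neg, 5 whose identifiers hold pos and 17 transcript clusters were called.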

How the results depend on the processing

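Of the 88 named genes that were called, 85 kept their direction in every alternative that was run for them (37, or 1 fewer where the SD filter removed the gene), and over 3211 values 2668 kept direction and side of the threshold, 539 lost the call and 4 turned. The 428 pooled calls became 2334 at an adjusted p under 0.25, 147 among genes of high SD, 750 among genes above the median level, 250 with male mouse 3, 680 with sham mice in 1 model, 22 in males only, 49 without diabetic and 213 without old mice. Leaving out 1 mouse gave 317 to 708, and only old mouse 8 (708) moved the count by over 1.5 times. The pairing was the block of the design, and without this replicate block 284 genes were called. It changed no other count of calls by as much. Rises were 55.6% of the pooled calls, 79.6% among genes of high SD and 42.9% above the median level.

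The 33 calls against sham became 250 at 0.25, 83 above the median level and 17 with rows as deposited, and 24 to 65 without 1 mouse (65 without old mouse 8). The F-test between groups, with 0 calls, gave 480 at 0.25, 43 above the median level, 1 with a variance trend, 18 with scaled arrays, 7 after joint quantile normalization, 53 with rows as deposited and 0 to 31 without 1 mouse: 31 without diabetic mouse 8, 6 without diabetic mouse 3, 2 without diabetic mouse 5, 7, 3 and 1 without male mice 5, 7 and 1, and 1 without old mouse 8. The cause was not tested. Sham mice gave 0 calls in each alternative.

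Without the 2 farthest mice r was 0.47 for Npas4 and Hspa1a, 0.43 for Npas4 and Ccl3, 0.58 for Npas4 and Ccn1, 0.36 for Hspa1a and Ccl3, 0.26 for Hspa1a and Ccn1 and -0.14, turned, for Ccl3 and Ccn1 (0.56 with all). Without old mouse 8 alone r was 0.34, 0.54, 0.48, 0.54, 0.31 and 0.03 in this order. In males only, the sign turned for Dctd (0.147), Flna (-0.0479), Plscr1 (-0.0886), Mlec (0.217), Gpr6 (0.0283), Gfap (-0.0253) and Snap25 (0.121). Without diabetic mice it turned for Dctd (0.107), Flna (-0.00296), Plscr1 (-0.161), Mlec (0.131) and Snap25 (0.0700). Dcakd turned with male mouse 3 (-0.00330), in diabetic and old mice (-0.201), without male mouse 8 (-0.00876) and without old mouse 7 (-0.000161), in a range of -0.00876 to 0.0477 over the fits without 1 mouse. Snap25 turned with male mouse 3 (0.0413) and with scaled arrays (0.00496), and Kcnf1 with rows as deposited (-0.0107).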

Other observations

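Genes of the cell's basic machinery gave few calls. None of 75 mitochondrial ribosomal protein genes and none of 10 housekeeping genes was called, with or without old mouse 8. Of 74 nuclear genes of the respiratory chain and 38 of the proteasome none was called with all mice, and 3 and 1 fell without old mouse 8. Over all genes 2.19% were called with all mice and 3.63% without old mouse 8, so such counts say little for lists of this size. Among 61 cytosolic ribosomal protein genes Rpsa rose by 0.17 ± 0.05 (SE, n = 23, limma adjusted p = 0.0426). That is 1.64% of the list, near the 1.22% of all genes that rose. Of 46 mitochondrial carriers, Slc25a25, an ATP-Mg/phosphate carrier, rose by 0.52 ± 0.06 (adjusted p = 2.07e-05) and Slc25a51, which carries NAD, fell by 0.16 ± 0.04 (adjusted p = 0.0264). That is 2.17% in each direction, against 1.22% rising and 0.974% falling over all genes.

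Of 87 potassium channel genes Kcne4 and Kcnf1 rose, by 0.58 and 0.16, and Kcnh4 and Kcnj12 fell, by 0.33 and 0.32. That is 2.30% in each direction, against 1.22% rising and 0.974% falling over all genes. The calls of Kcne4 and Kcnf1 were lost in 23 and 21 alternatives and kept in 13 and 14. Those of Kcnh4 and Kcnj12 were lost in 7 and 3. Of 18 p53 targets Btg2, Plk3 and Plk2 rose and Trp53inp1 fell. None of 42 collagen chains was called, against 2.19% of all genes, which says little for a list of that size. Of 1091 olfactory receptor genes, most of which serve smell in the nose, 2 rose (Olfr495 by 0.36 and Olfr1328 by 0.34) and none fell. That is 0.183% rising, against 1.22% of all genes. Of the list, 788 genes were above 0, 72.2% against 50.3% of all genes, with a median of 0.05. Both risers were weak, Olfr495 at mean signals of 3.55 in IP and 3.19 in CL and Olfr1328 at 2.71 and 2.37. The call was lost in 2 alternatives for Olfr495 and in 21 for Olfr1328. Diabetic mice had the largest median of that list, 0.13, against 0.01 in old and 0.00 in male mice.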
